A study of Homo sapiens with 12 samples.

Results

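The genes described here encode the proteins of the cytosolic ribosome. They were taken from a table of TPM values (transcript levels scaled for length and for the library total) by their symbols alone: RPL or RPS followed by a number, with an optional A, X, L or L1, together with RPLP0, RPLP1, RPLP2 and RPSA. This gave 84 of the 57152 genes that hold values, 52 of the large ribosomal subunit and 32 of the small one. The rule reads the symbol and no measured value. Of the 84, 82 reached the mean of 1 TPM needed for testing, 50 of the large subunit and 32 of the small. RPL10L was listed at 0 in all 12 libraries and RPL3L lay between 0 and 0.07 TPM, and neither was tested.

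RNA was sequenced from A549, an established line from a human lung adenocarcinoma, and from LB cells, whose labels name A549 as the source and do not say how the line was derived. The 12 libraries form 4 groups of 3: A549 cells with 0.1% DMSO, LB cells with 0.1% DMSO, LB cells with 10 µM amiodarone, and LB cells seeded with 10 mg/ml hydroxypropyl-beta-cyclodextrin (HPbCD) and then given 10 µM amiodarone. Cells were seeded with or without HPbCD, left for 24 h, and then exposed to drug or vehicle for 24 h. Amiodarone is an antiarrhythmic drug that collects in lysosomes and can injure the lung, and HPbCD is a ring of sugars that binds cholesterol. All 4 comparisons use LB cells, so a single derived line stands behind each of them, and no A549 cells received either agent.

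The epithelial keratins and adhesion genes KRT8, KRT18, KRT19, EPCAM and CDH1 were all present, with a summed level of 7254 to 7791 TPM in A549 and 2561 to 3223 TPM over the 9 LB libraries. KRT8 and KRT18 made up most of this sum, while EPCAM was at 1.13 to 12.1 TPM and CDH1 at 7.29 to 33.15 TPM over the 12 libraries. Markers of other cell types were low: fibroblast markers summed to 3.77 to 16.2 TPM, leukocyte markers to 1.69 to 7.42 TPM with CD3E at 0, and endothelial markers to at most 0.88 TPM. The fibroblast marker COL1A1, at 2.60 to 9.25 TPM, overlapped EPCAM in level. In LB DMSO against A549 DMSO all 5 epithelial markers fell (median log2 difference -1.27) and both fibroblast markers that could be tested rose (median 1.16). Of all genes tested 18.2% were called lower and 14.2% higher there. Whether the 3 replicates of a group came from separate cultures is not in the labels, and the p-values therefore cover the spread among these libraries alone, which may be technical. In bulk RNA, fewer cells with a transcript and less of it in each cell cannot be told apart.

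A ribosome joins a small subunit, which holds and reads the messenger RNA, to a large subunit, which forms peptide bonds and lets the new chain out through a tunnel. Each subunit needs nearly all of its proteins in equal number, and growing cells spend a large part of their transcription on these genes. Many of their messengers begin with a terminal oligopyrimidine (TOP) tract, a cytidine followed by a run of pyrimidines, through which the mTOR pathway controls their translation. A few members have a paralog (the names that end in L or L1) that is made at a lower level and can take the partner's place in the ribosome or act outside it.

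The TOP tract is the sequence feature that sets this family apart at its start sites. Promoter windows from RefSeq (GRCh38.p14) were found for 67 of the 84 members. A tract of at least 5 bases, a C followed by 4 or more C or T, began at the annotated start in 47 of the 67 (70.1%), against 680 of 9498 other tested protein-coding genes (7.16%) and 5.14% of all 27305 windows. When the tract could begin within 5 bases on either side, 54 members (80.6%) and 29.4% of the other tested genes had one. The tract is shown for members that differed most between groups and for tested paralogs with a window, with the partner where it had one. The RPS27 and RPL26 pairs differ in it. Each line gives 15 bases before and 15 from the annotated start, with the tract in capitals.
RPS12, chr6:132814554-132814583, plus strand: gcgtgcggatgaggcCTCTTTCCCTgccgc
RPS18, chr6:33272060-33272089, plus strand: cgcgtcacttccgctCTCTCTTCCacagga
RPS10, chr6:34426055-34426084, minus strand: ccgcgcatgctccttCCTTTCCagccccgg
RPS16, chr19:39435935-39435964, minus strand: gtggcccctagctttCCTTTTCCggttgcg
RPL36, chr19:5690280-5690309, plus strand: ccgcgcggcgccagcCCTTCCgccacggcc
RPLP2, chr11:809952-809981, plus strand: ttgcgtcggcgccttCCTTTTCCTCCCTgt
RPL22, chr1:6199581-6199610, minus strand: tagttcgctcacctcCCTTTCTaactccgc
RPL22L1, chr3:170870181-170870210, minus strand: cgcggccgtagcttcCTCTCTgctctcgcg
RPS27, chr1:153990747-153990776, plus strand: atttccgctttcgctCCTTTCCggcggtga
RPS27L, chr15:63157463-63157492, minus strand: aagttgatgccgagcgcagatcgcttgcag
RPL26, chr17:8383179-8383208, minus strand: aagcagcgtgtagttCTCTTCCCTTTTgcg
RPL26L1, chr5:172958714-172958743, plus strand: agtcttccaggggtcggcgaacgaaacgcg
RPL7L1, chr6:42879601-42879630, plus strand: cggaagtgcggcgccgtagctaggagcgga

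RPL22L1 carried a tract like its partner RPL22, whereas the windows of RPS27L, RPL26L1 and RPL7L1 had none at the annotated start. A missing match says only that these letters are not in this window. Other motifs were searched on both strands of the same RefSeq promoter windows (250 bases before the start to 50 after), where CCGGAAG was found in 35.8% of members and 23.0% of other tested genes, ATGGCGG in 20.9% and 13%, TATAAA in 10.4% and 7.88%, and CACGTG in 7.46% and 13%. Median levels were 2321 TPM for the 47 members with a tract at the start and 1561 TPM for the 19 tested members with a window but none. The members without a window included RPS2, RPS15A, RPS20, RPL3L, RPL5, RPL7, RPL8, RPL23, RPL23A, RPL30, RPL37 and RPL39L. Another feature of the loci is that small nucleolar RNAs lie within the gene span of 28 of the 82 tested members (34.1%), against 178 of 12051 other tested protein-coding genes (1.48%).

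Ribosomal protein messengers were among the most abundant transcripts in these cells and varied little. TPM is scaled by transcript length, so that levels of different genes can be set side by side. How well this holds for short messengers was not tested. By mean level over the 12 libraries, 67 of the 82 tested members were above 1000 TPM, and 54 of the 100 highest genes of the whole table were members, where the median tested gene was at 15.1 TPM. The highest were RPL41 at 5684 TPM, RPS19 at 5394, RPS16 at 5392, RPL13A at 4316 and RPL19 at 4187. RPL41 ranged from 5359 to 6073 TPM and RPS19 from 5054 to 5811 TPM over single libraries, so the leading genes overlapped and their order is not resolved.

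The lowest tested members were all paralogs: RPL39L at 53.3 TPM, RPL7L1 at 73.2, RPL26L1 at 109 and RPL22L1 at 267, followed by RPS27L at 333. Without these 5, the other 77 genes ran from 608 TPM for RPL14 to 5684 TPM for RPL41, a 9.34-fold range around a median of 2114 TPM, although their proteins are needed in nearly equal number. The coefficient of variation over all 12 libraries had a median of 4.53% (2.80% to 17.5%) for members, against 15.9% for all tested genes and 10.9% for the 183 other genes of at least 500 TPM. Processed copies of these genes hold 1144 rows of the table, 67 of them with a mean of at least 1 TPM, and made up 0.285% to 0.338% of TPM in each library. How the authors' counting divided reads between a gene and its copies cannot be seen from the table. The copies were large beside the gene for RPL9 (579 TPM in LB DMSO on average, where the gene was at 698), RPL22 (154 beside 701), RPS2 (701 beside 3549), RPL14 (127 beside 652) and RPL39 (446 beside 2467).

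**Figure D1:**
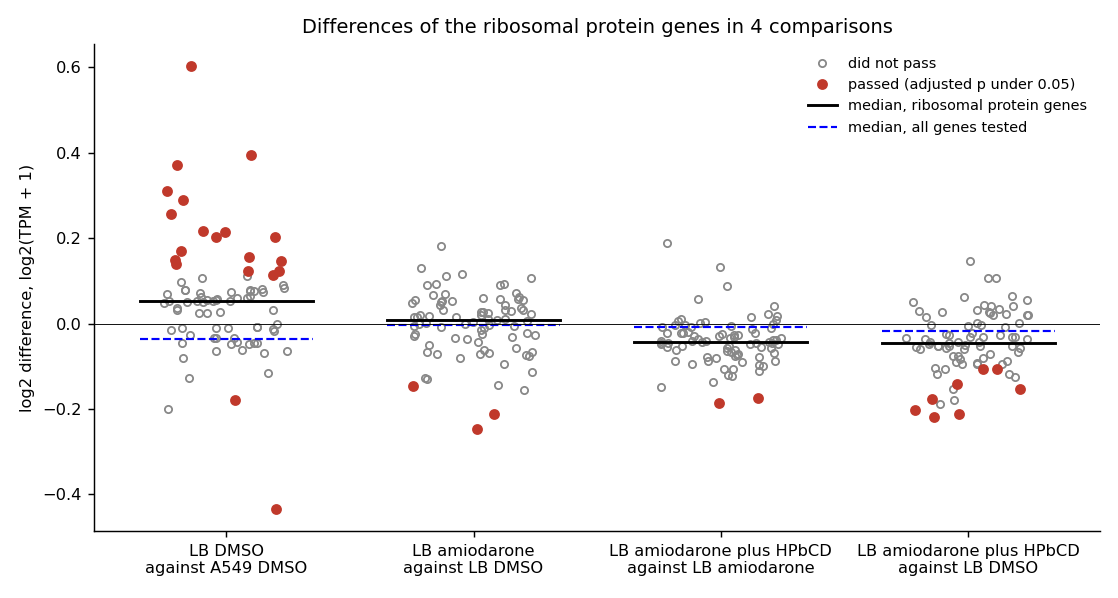
Each point is 1 of the 82 tested ribosomal protein genes, placed by its log2 difference on the log2(TPM + 1) scale in 4 comparisons of 3 libraries against 3. Filled points passed the limma test at an adjusted p of 0.05 (20, 3, 2 and 8), and lines give the medians of the ribosomal protein genes and of all genes tested. The largest differences, RPS12 at 0.60 and RPS27L at -0.43, are between LB and A549 cells.

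The LB line was compared with A549, both in vehicle, to see how the lines differ without drug. In LB cells 18 ribosomal protein genes rose and 2 fell of 82 tested, and small-subunit genes made up 12 of the 20: RPS12 rose by 0.60 on the log2 scale and RPS18, RPL7L1, RPS10, RPS16 and RPS23 by 0.26 to 0.39, while RPS27L fell by 0.43. In either direction the 20 genes are 24.4% of members, below the 32.4% of all genes tested that were called. By direction, 18 of 82 members rose and 2 fell, where 14.2% of all genes were higher and 18.2% lower. The calls of members thus leaned higher and those of all genes lower, and whether the split differs was not tested. Each member's difference was below 2-fold, a size that 745 genes of the whole table reached. The median difference was 0.05 for members and -0.04 for all genes tested, with 53 members above 0 and 29 below. Of the small-subunit genes 10 rose and 2 fell of 32, and of the large-subunit genes 8 rose and 0 fell of 50 (12 at an unadjusted limma p under 0.05 in either direction). Whether the subunits differ was not tested.

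RPS12 (chromosome 6, 132814441 to 132817564, plus strand, GRCh38 in GENCODE 29), a protein of the small-subunit beak, had the largest difference. A549 cells held 1429, 1466 and 1424 TPM of it and LB cells with vehicle 2167, 2236 and 2157 TPM. The groups were far apart, with all 3 LB values above all 3 A549 values, and the log2 difference was 0.60 ± 0.04 SE (limma adjusted p = 1.76e-07). In LB amiodarone RPS12 was at 2346, 2137 and 2218 TPM, and with both agents at 2232, 2205 and 2217, so the 9 LB libraries lay together whatever the treatment.

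RPS18 (chromosome 6, 33272010 to 33276510, plus strand), a protein of the small-subunit head, was at 2127, 2054 and 2276 TPM in A549 and 2714, 2922 and 2853 in LB DMSO. The lowest LB library was above the highest A549 library, and the log2 difference was 0.39 ± 0.05 SE (adjusted p = 4.57e-05). RPS10 (chromosome 6, 34417454 to 34426125, minus strand), also a protein of the small-subunit head, was at 1546, 1476 and 1620 TPM in A549 and 1891, 1930 and 1935 in LB DMSO. Again no values overlapped, and it rose by 0.31 ± 0.04 SE (adjusted p = 0.000156).

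RPS16 (chromosome 19, 39433207 to 39435948, minus strand), whose tail reaches towards the decoding site, was at 4806, 4613 and 4931 TPM in A549 and at 5862, 5833 and 5824 in LB DMSO. The LB values were close together and all above A549, with a log2 difference of 0.29 ± 0.04 SE (adjusted p = 0.000138). RPS23, a protein of the decoding centre on chromosome 5, was at 2567, 2508 and 2715 TPM in A549 and 3045, 3088 and 3170 in LB DMSO. The groups were apart, and RPS23 rose by 0.26 ± 0.04 SE (adjusted p = 0.000264).

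Among large-subunit genes RPL38 on chromosome 17, known from the mouse for its part in skeletal patterning, was at 2502, 2447 and 2496 TPM in A549 and 2793, 2917 and 2950 in LB DMSO. It rose by 0.22 ± 0.04 SE with no overlap (adjusted p = 0.00194). RPL23A, RPL30 and RPL19 rose by 0.20, 0.20 and 0.16 (adjusted p = 0.00116, 0.00333 and 0.00415), and of the small subunit RPS14 rose by 0.21 (adjusted p = 0.00328). RPS27L and RPL7L1, the paralogs among the called genes, are described with their partners.

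These 12 genes kept their call in all 12 fits that left out 1 library and in the other settings tried. The remaining 8 (among them RPS28, RPL31, RPS27, RPL13A and RPL3, which were higher in LB, and RPS15A, which was lower) differed by 0.11 to 0.18 on the log2 scale. All 8 lost the call without LB DMSO replicate 2, where 12 of the 20 were left (adjusted p = 0.0522 to 0.133 for the 8). Of the 20, 15 passed without A549 DMSO replicate 1, 15 without replicate 2 and 18 without replicate 3. Dropping LB DMSO replicate 1 left 16, and dropping replicate 3 left 14. Only 12 members passed without the filter on low values and also without the mean-variance trend, and 31 (29 higher, 2 lower) passed after quantile normalization.

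**Figure D2:**
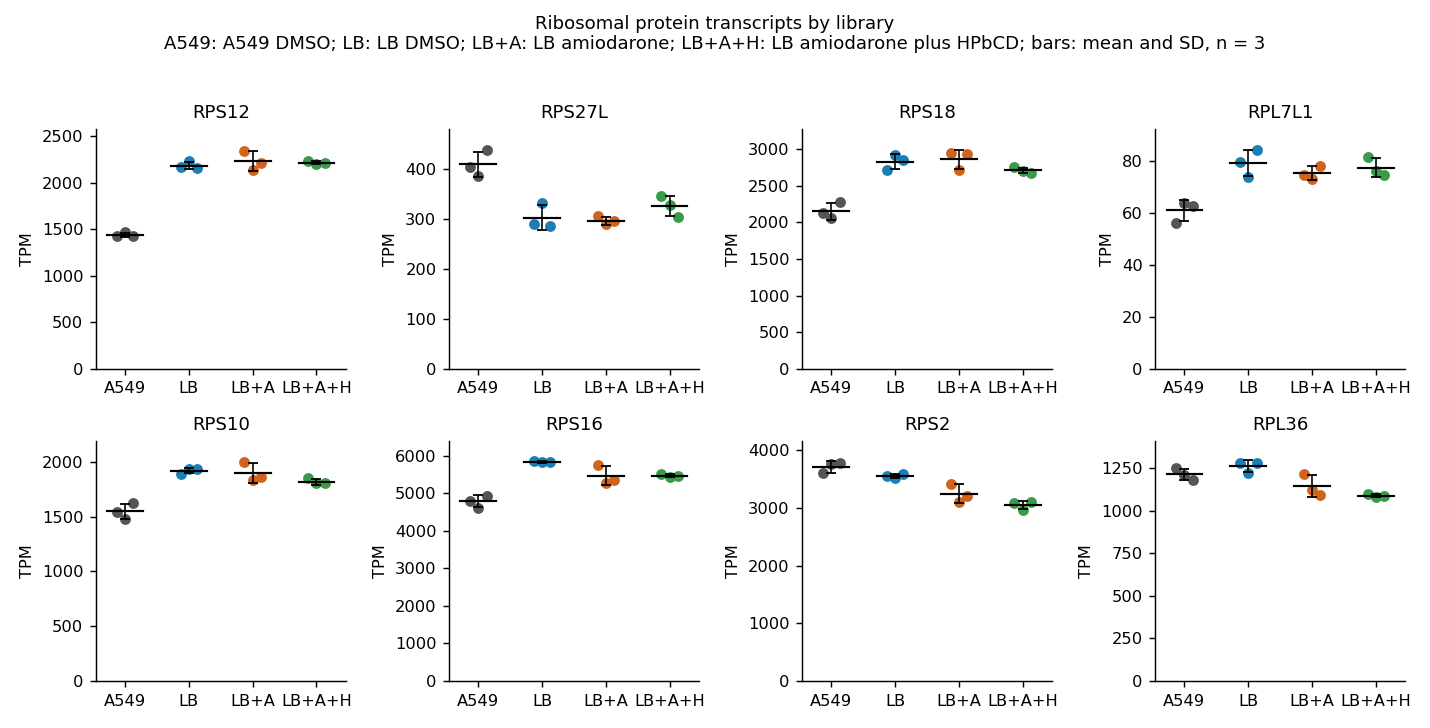
TPM in each library (points, axes from 0) with the group mean and SD (n = 3) for the 6 ribosomal protein genes with the largest differences between LB DMSO and A549 DMSO, and for RPS2 and RPL36. The first 6 separate A549 from the 3 LB groups, whereas RPS2 and RPL36 are lowest in LB amiodarone plus HPbCD, at 2970 to 3096 and 1083 to 1096 TPM.

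On chromosome 6 the median difference between the lines was raised for the members and for the other genes. Of the 5 tested members on chromosome 6, RPS12, RPS18, RPL7L1 and RPS10 rose and RPL10A was at 0.08 (did not pass), with a median log2 difference of 0.37. The 619 other tested protein-coding genes of chromosome 6 had a median of 0.22 in LB DMSO against A549 DMSO, whereas on each of the 20 other chromosomes with a tested member that median lay between -0.14 and 0.04. Among protein-coding genes within 1 Mb of the gene, 16 of 31 neighbours of RPS18 rose (median 0.32), as did 18 of 36 around RPL7L1 (0.25), 6 of 18 around RPS10 (0.15) and 2 of 6 around RPS12 (0.09). The difference of RPS12 was larger than the median of its neighbours and of the chromosome, and that of RPS18 was closer to both. In the 3 comparisons within LB cells the chromosome 6 median was 0.02, -0.02 and -0.02. Copy number was not measured here, chromosome 6 was singled out after its values were seen, and its part in the differences of these members was not tested.

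The medians of the other chromosomes did not show such a shift, but smaller regions varied. For risen members on these chromosomes, the median of the neighbours within 1 Mb ran from -0.17 around RPL31 to 0.26 around RPS14. Of the neighbours of RPS14 on chromosome 5, 7 of 19 rose, as did 2 of 5 around RPS23 (median 0.22). The part of position in these differences was not tested. RPS16 is on chromosome 19, where the 864 other protein-coding genes had a median of 0.04 and RPS16 stood at 0.29. RPS27L, on chromosome 15, fell by 0.43 while the 11 genes within 1 Mb had a median of -0.26, of which 0 rose.

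**Figure D3:**
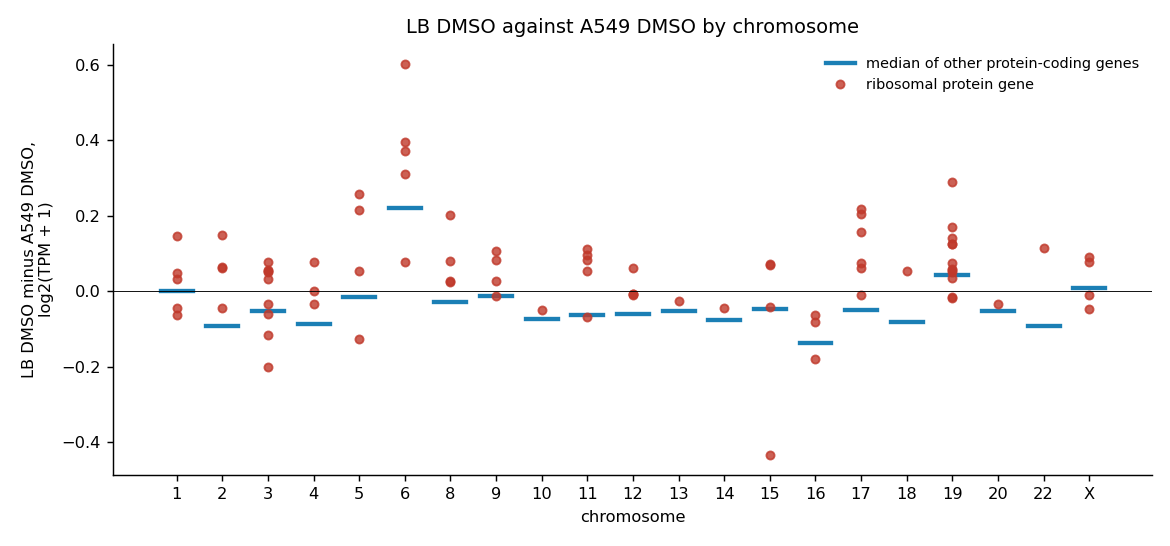
Log2 difference of LB DMSO against A549 DMSO for each tested ribosomal protein gene (points), by chromosome, with the median of the other tested protein-coding genes of that chromosome (bars). The chromosome 6 bar stands at 0.22, above the range of -0.14 to 0.04 of the other bars.

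Amiodarone was compared with vehicle in LB cells to see the response to the drug. Ribosomal protein messengers moved little: 3 fell and 0 rose of 82 (14 at an unadjusted limma p under 0.05), 3.66% of members, against 8.62% of all genes tested (4.90% higher and 3.72% lower). The median difference was 0.01 for members and 0.00 for all genes, and the members' median turned just below 0 after removal of the mitochondrially encoded genes. The whole family ran from -0.25 to 0.18, where RPS7 had the highest value (0.18, adjusted p = 0.0735).

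RPL26L1, described with its partner, was lowest at -0.25 (adjusted p = 0.0424). RPL14, a large-subunit protein, was at 648, 665 and 644 TPM with vehicle and 613, 544 and 535 with amiodarone. The amiodarone values were all lower, and the difference was -0.21 ± 0.05 SE (adjusted p = 0.0285). Its copies summed to 127 TPM with vehicle and 135 with amiodarone on average, so the division of reads is uncertain here too. RPS26, which sits at the messenger exit of the small subunit, was at 727, 766 and 747 TPM with vehicle and 679, 667 and 676 with amiodarone, again without overlap (difference -0.15 ± 0.04 SE, adjusted p = 0.0280).

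All 3 of these calls depended on single libraries. RPL26L1 lost its call without any 1 of the LB libraries other than LB amiodarone replicate 1 (adjusted p = 0.0580 to 0.154). RPL14 lost it without any LB DMSO library or LB amiodarone replicate 2 or 3 (0.0715 to 0.104), and RPS26 without LB DMSO replicate 2 or 3 or any LB amiodarone library (0.0573 to 0.100). The number of members called was 0 without LB DMSO replicate 2, LB DMSO replicate 3 or LB amiodarone replicate 3. It was 1 without LB DMSO replicate 1 or LB amiodarone replicate 2, and 6, all lower, without LB amiodarone replicate 1. Scaling also moved the count and its split, to 3 higher and 4 lower after quantile normalization and to 2 higher and 6 lower without the mitochondrially encoded genes.

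HPbCD with amiodarone was compared with amiodarone alone, and with vehicle, to see what the cyclodextrin changed in the presence of amiodarone. No group received HPbCD alone, so its own effect and a changed response to amiodarone cannot be told apart. The vehicle comparison shares its controls with that of amiodarone alone, so the values are given side by side. Against amiodarone, 2 members fell and 0 rose (11 at an unadjusted limma p under 0.05), 2.44% of members and 4.07% of all genes (2.71% higher, 1.36% lower), with a median of -0.04 for members and -0.01 for all genes and with 69 of the 82 members below 0. Against vehicle, 8 fell and 0 rose (20 unadjusted), 9.76% of members and 17.9% of all genes (10.1% higher, 7.81% lower), with a median of -0.04 and -0.02. As between the lines, no difference reached 2-fold.

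RPS2 (chromosome 16, 1962052 to 1964860, minus strand), a protein of the messenger entry channel, was at 3552, 3510 and 3586 TPM with vehicle, 3421, 3099 and 3212 with amiodarone, and 3082, 2970 and 3096 with both agents. Each group lay wholly below the one before. The difference from vehicle was -0.22 ± 0.04 SE with both agents (adjusted p = 0.00288) and -0.13 with amiodarone alone (adjusted p = 0.0701), while that between the drug groups was -0.09 (adjusted p = 0.283). The 20 processed copies of RPS2 summed to 701 TPM with vehicle and 689 with both agents on average, and how reads were divided between them and the gene is uncertain.

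RPL36 (chromosome 19, 5674947 to 5691876, plus strand), of the large subunit, was at 1283, 1225 and 1281 TPM with vehicle, 1218, 1123 and 1093 with amiodarone, and 1096, 1083 and 1089 with both. The values with both agents were below all vehicle values, with a difference of -0.21 ± 0.04 SE (adjusted p = 0.00508), and with amiodarone alone it was -0.14 (adjusted p = 0.0638). RPS2 and RPL36 kept this call in every fit that left out 1 library and in the other settings tried.

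RPLP2, an acidic protein of the stalk that binds elongation factors, was at 1423, 1425 and 1382 TPM with vehicle, 1253, 1334 and 1322 with amiodarone, and 1149, 1311 and 1220 with both. All values with both agents were below vehicle (difference -0.20 ± 0.05 SE, adjusted p = 0.0124, and 0.0571 without LB amiodarone plus HPbCD replicate 1). RPL29 was at 821 ± 18.3 TPM with vehicle and 744 ± 8.34 with both agents (SD, n = 3), a difference of -0.14 (adjusted p = 0.0137, and 0.0625 without LB DMSO replicate 1). RPL12, at the base of the stalk, was at 2214, 2204 and 2310 TPM with vehicle, 2366, 2218 and 2295 with amiodarone, and 2075, 1971 and 2000 with both. It was lowest with both agents, without overlap, by -0.15 ± 0.04 SE against vehicle (adjusted p = 0.0145) and by -0.19 ± 0.04 SE against amiodarone (adjusted p = 0.0172).

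RPL12 lost the call against vehicle without LB DMSO replicate 3 or LB amiodarone plus HPbCD replicate 2 or 3 (adjusted p = 0.0545 to 0.0652). Against amiodarone it lost it without LB amiodarone replicate 1 or 3 or LB amiodarone plus HPbCD replicate 2 or 3 (0.0607 to 0.0757). RPS28 (-0.18, adjusted p = 0.0322), RPS4X (-0.11, 0.0372) and RPL7A (-0.11, 0.0411) passed against vehicle. RPS28 and RPS4X lost the call without any 1 of the 6 libraries compared (0.0538 to 0.100 and 0.0531 to 0.114), and RPL7A without any of these or LB amiodarone replicate 3 (0.0549 to 0.135).

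The count against vehicle was 5 without LB DMSO replicate 1 or 2 and 4 without LB DMSO replicate 3 or LB amiodarone plus HPbCD replicate 1 or 3. Without LB amiodarone plus HPbCD replicate 2 it was 5, of which 1 rose. It was 7 lower and 2 higher after quantile normalization. Against amiodarone the count was 0 without LB amiodarone replicate 1 or 3 or LB amiodarone plus HPbCD replicate 2 or 3. It was 1 without A549 DMSO replicate 1, any LB DMSO library, LB amiodarone replicate 2 or LB amiodarone plus HPbCD replicate 1.

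The summed share shows how much of the transcript pool these genes took. Ribosomal protein messengers made up 17.2%, 17.0% and 17.9% of TPM in A549, 17.9%, 18.2% and 18.4% in LB DMSO, 19.0%, 17.7% and 18.1% in LB amiodarone, and 18.0%, 17.4% and 17.7% in LB amiodarone plus HPbCD. The 3 A549 values were below the 3 LB DMSO values, and the other groups overlapped. Group means were 17.4 ± 0.470, 18.2 ± 0.243, 18.3 ± 0.670 and 17.7 ± 0.335% (SD, n = 3). An exact permutation test of the 4 groups over 15400 regroupings gave p = 0.133, above the 0.05 threshold. Pairs of 3 against 3 cannot go below a two-sided exact p of 0.100, which is the value for LB DMSO against A549 DMSO. The other pairs had exact p = 0.900 for amiodarone against vehicle, 0.300 for both agents against amiodarone and 0.200 for both agents against vehicle.

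Members moved together by library. LB amiodarone replicate 1 was the highest of its group for 65 of the 82 genes and replicate 2 the lowest for 65, and A549 DMSO replicate 3 was highest for 69. The share of mitochondrially encoded transcripts moved the other way. It was 5.61% in LB amiodarone replicate 1 and 8.49% in replicate 2, and in each of the 4 groups the library with the lowest mitochondrial share had the highest ribosomal protein share. Both are parts of 1 total that is fixed in TPM.

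With the mitochondrially encoded genes removed and TPM rescaled, the ribosomal protein share was 18.9%, 18.5% and 19.1% in A549, 19.6%, 19.7% and 19.8% in LB DMSO, 20.1%, 19.3% and 19.4% in LB amiodarone, and 19.1%, 18.6% and 18.9% with both agents. LB cells with vehicle or amiodarone were then above A549 and above LB cells with both agents in every library, and the exact permutation test of the 4 groups gave p = 0.0126. The original share gave an exact permutation p of 0.0465 without LB amiodarone replicate 2. With this rescaling 20 members fell and 0 rose in both agents against vehicle, and 7 fell and 0 rose against amiodarone. The part of the mitochondrial share in these counts was not tested.

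**Figure D4:**
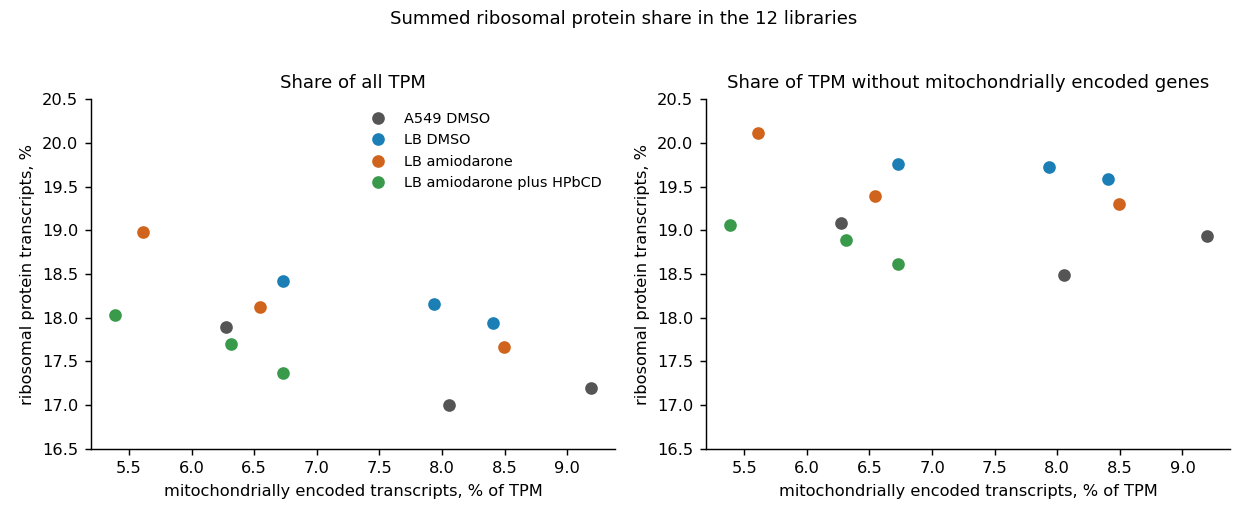
Summed share of ribosomal protein transcripts (vertical, percent, an axis that does not start at 0) against the share of mitochondrially encoded transcripts (horizontal, percent of TPM) in the 12 libraries, as deposited on the left and with the mitochondrially encoded genes removed on the right. Within each group the library lowest in mitochondrial transcripts is highest in ribosomal protein transcripts, and on the right LB DMSO and LB amiodarone lie at 19.3% to 20.1% while the other groups lie at 18.5% to 19.1%.

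Paralogs were compared as a ratio to the partner within each library, which removes any factor common to both. Of the 7 pairs, RPL3L with RPL3 and RPL10L with RPL10 could not be compared, since RPL3L and RPL10L were near or at 0. RPL3 was at 1615 ± 64.7 TPM and RPL10 at 3536 ± 122 in A549, and at 1748 ± 36.7 and 3507 ± 36.8 in LB DMSO (SD, n = 3). The remaining 5 ratios differed among the 4 groups in an exact permutation test of the log2 ratio, with p adjusted over the 5 pairs. For single pairs of groups, 3 against 3, the smallest exact p is 0.100, so there only overlap is given.

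RPS27L, a p53 target that can stand in for RPS27 in the small subunit, was at 403, 386 and 436 TPM in A549. It was at 290, 331 and 285 in LB DMSO, 305, 289 and 295 in LB amiodarone, and 344, 328 and 303 with both agents. All LB libraries lay below all A549 libraries, and RPS27L fell by 0.43 ± 0.07 SE on the log2 scale in LB DMSO (limma adjusted p = 0.000321, and at most 0.00228 with any 1 library left out).

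RPS27, the partner, was at 3162, 3065 and 3324 TPM in A549, 3457, 3528 and 3584 in LB DMSO, 4000, 3770 and 3803 in LB amiodarone, and 3552, 3327 and 3379 with both agents. It was highest with amiodarone and lowest in A549. RPS27 was 0.15 higher in LB DMSO than in A549 (adjusted p = 0.0176), a call lost without A549 DMSO replicate 2 or LB DMSO replicate 2 or 3 (0.0536 to 0.0635). It was 0.13 higher with amiodarone than with vehicle (adjusted p = 0.0768), and 0.17 lower with both agents than with amiodarone (difference -0.17, adjusted p = 0.0379). That last call was lost without any 1 library other than A549 DMSO replicates 2 and 3 (0.0518 to 0.141).

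As a percentage of RPS27, RPS27L was at 12.8 ± 0.284 in A549, 8.57 ± 0.735 in LB DMSO, 7.68 ± 0.0623 in LB amiodarone and 9.50 ± 0.466 with both agents (SD, n = 3; exact permutation p = 0.00039, adjusted p = 0.00179). The ratio was highest in A549 and lowest with amiodarone, and LB amiodarone overlapped none of the other groups. LB DMSO and both agents overlapped, at 7.96 to 9.39% and 8.97 to 9.85%.

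RPL22L1 is the paralog of RPL22, whose protein is known to hold down RPL22L1 expression. It was at 266, 326 and 282 TPM in A549, 240, 247 and 271 in LB DMSO, 264, 240 and 285 in LB amiodarone, and 276, 235 and 267 with both agents. RPL22 was at 656, 681 and 719 TPM in A549, 667, 725 and 710 in LB DMSO, 741, 692 and 746 in LB amiodarone, and 687, 638 and 716 with both agents. Values of both genes overlapped across all groups, and neither passed in any of the 4 comparisons, with copies of RPL22 at 143 to 160 TPM in the group means (for RPL22L1 in LB DMSO against A549 DMSO -0.20, limma adjusted p = 0.104).

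The RPL22L1 level was 42.5 ± 4.64% of RPL22 in A549, 36.1 ± 2.04% in LB DMSO, 36.2 ± 1.85% in LB amiodarone and 38.1 ± 1.81% with both agents (SD, n = 3). This is the highest paralog ratio of the 5. All A549 ratios (39.2 to 47.8%) were above those of LB DMSO (34.1 to 38.2%), and the exact permutation test of the 4 groups gave p = 0.0408 (adjusted p = 0.0408). The exact permutation p was 0.175 without A549 DMSO replicate 2, the library with the highest ratio, and 0.117 after quantile normalization.

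RPL26L1, a close copy of RPL26 at the tunnel exit, was at 118, 135 and 116 TPM in A549 and 107, 109 and 119 in LB DMSO. It was at 101, 88.4 and 93.7 with amiodarone and 110, 106 and 106 with both agents. The 3 amiodarone values were the lowest of all 12. The partner RPL26 was between 3305 and 3609 TPM in every library, and RPL26L1 was 3.59 ± 0.372, 3.30 ± 0.160, 2.67 ± 0.103 and 3.07 ± 0.0750% of it in the 4 groups in the same order (SD, n = 3). The amiodarone ratios overlapped none of the other groups (exact permutation p = 0.000714, adjusted p = 0.00179).

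RPL7L1 (chromosome 6, 42879618 to 42889925, plus strand) was at 56.3, 64.0 and 62.7 TPM in A549, 79.5, 74.0 and 84.1 in LB DMSO, 74.5, 73.0 and 78.2 in LB amiodarone, and 81.7, 76.0 and 74.8 with both agents. All 9 LB values were above A549, and RPL7L1 rose by 0.37 ± 0.06 SE in LB DMSO (limma adjusted p = 0.000784). RPL7 stayed between 2203 and 2465 TPM and did not pass in any comparison. The RPL7L1 ratio was 2.7 ± 0.130, 3.45 ± 0.179, 3.15 ± 0.0279 and 3.30 ± 0.173% of RPL7 (SD, n = 3; exact permutation p = 0.00247, adjusted p = 0.00411). RPL7L1 lies on chromosome 6, whose other genes had a raised median in LB cells, as given above.

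RPL39L, a paralog known for its high level in testis, was at 54.4, 58.9 and 64.0 TPM in A549, 48.0, 56.9 and 58.8 in LB DMSO, 55.5, 51.4 and 48.8 in LB amiodarone, and 49.6, 44.9 and 48.4 with both agents. RPL39, a small protein of the exit tunnel, ran from 2365 to 2750 TPM, and its copies summed to 420, 446, 553 and 374 TPM in the 4 group means. The ratio was 2.32 ± 0.121, 2.21 ± 0.155, 1.98 ± 0.176 and 1.79 ± 0.0130% of RPL39 (SD, n = 3; exact permutation p = 0.00916, adjusted p = 0.0114), and the values with both agents lay below those of LB DMSO without overlap. Neither RPL39L nor RPL39 passed the limma test in any comparison.

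**Figure D5:**
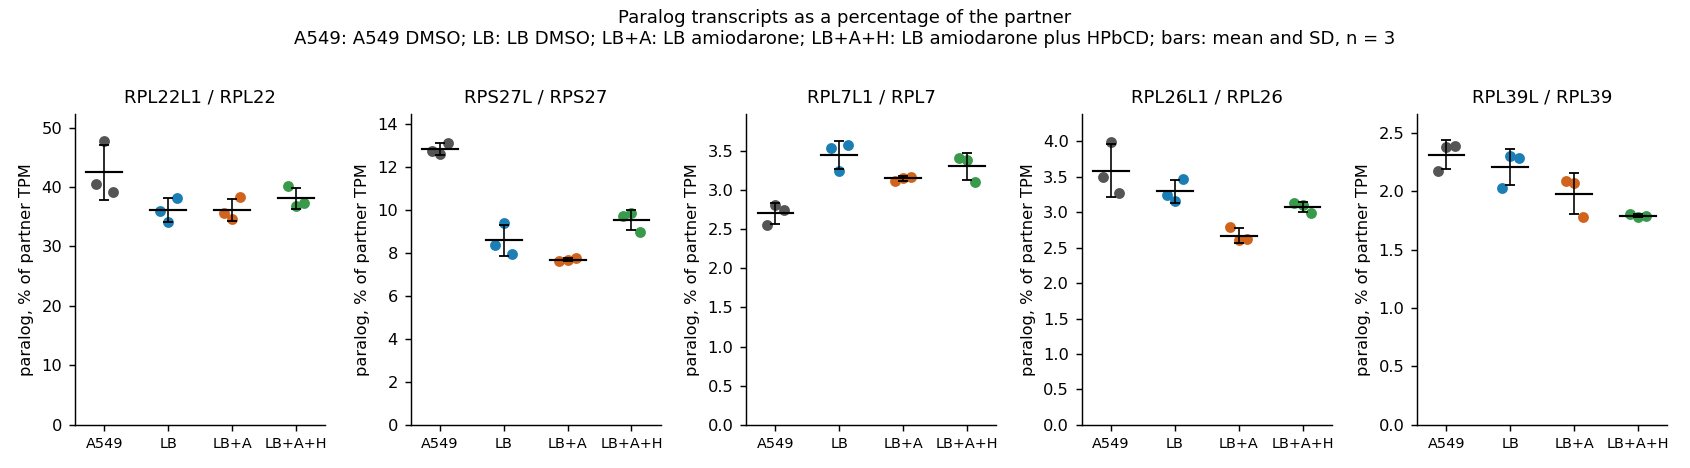
Paralog TPM as a percentage of the partner's TPM in each library (points, axes from 0), with the mean and SD of 3 libraries per group, for the 5 pairs expressed in these cells. RPS27L goes from 12.8% of RPS27 in A549 to 7.68% in LB amiodarone, RPL7L1 is lowest in A549 at 2.7% of RPL7, and RPL26L1 is lowest in LB amiodarone at 2.67% of RPL26.

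Members were also read by role. Of the stalk proteins RPLP0, RPLP1 and RPLP2, 0 passed between the lines, with amiodarone or between the drug groups (0, 2 and 0 at an unadjusted limma p under 0.05), and RPLP2 fell with both agents against vehicle. RPLP0 was at 3409, 3361 and 3770 TPM in A549, 3499, 3782 and 3712 in LB DMSO, 4107, 3844 and 3925 in LB amiodarone, and 3838, 3814 and 3826 with both agents. The amiodarone values were above vehicle, by 0.11 (adjusted p = 0.189). RPLP1 ranged over 2413 to 2738 TPM with overlap between all groups compared.

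RPL5 and RPL11, which with the 5S RNA bind and block MDM2 when ribosome assembly fails, also did not pass in any comparison (0 of the pair at an unadjusted limma p under 0.05). RPL5 had means of 922 ± 22.0, 882 ± 32.7, 917 ± 34.8 and 869 ± 26.2 TPM and RPL11 of 1480 ± 18.0, 1529 ± 12.7, 1605 ± 41.2 and 1556 ± 49.4 TPM in the 4 groups (SD, n = 3). RPS6, the substrate of the S6 kinases, stood at 2291 ± 89.4 TPM in A549 and 2331 ± 59.6, 2451 ± 83.2 and 2380 ± 87.4 in the LB groups. RPSA, which doubles as a laminin receptor, was at 1956 ± 54.5, 1874 ± 33.8, 1866 ± 71.7 and 1771 ± 17.4 TPM. RPS27A, made as a fusion to ubiquitin, was at 2244 ± 93.6, 2338 ± 49.5, 2378 ± 125 and 2329 ± 45.1 TPM, and RPS6, RPSA and RPS27A did not pass in any of the 4 comparisons.

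Of the 7 proteins at the rim of the exit tunnel RPL19, RPL23A and RPL31 rose in LB DMSO against A549, and 0 of 7 passed in the other comparisons (0 at an unadjusted limma p under 0.05 in each). Between the lines 32.4% of all genes tested were called (14.2% higher). Of the 3 calls, 2 were kept with any 1 library left out, and that of RPL31 was not. Of 6 proteins along the messenger channel 3 rose in LB DMSO, RPS14 and RPS28 among them, and RPS26 was lower with amiodarone, and RPS2 and RPS28 lower with both agents against vehicle. In these 3 comparisons 32.4%, 8.62% and 17.9% of all genes were called. Only RPS14 between the lines and RPS2 with both agents kept the call with any 1 library left out. Of 19 members mutated in Diamond-Blackfan anemia, an inherited failure of red cell production, 4 rose and 1 fell between the lines. In either direction this share is below the 32.4% of all genes called there (14.2% higher and 18.2% lower). In each other comparison 0 rose and 1 fell, and only RPS10 between the lines kept its call with any 1 library left out.

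Close relatives outside the naming rule were few. FAU was between 858 and 1033 TPM, RACK1 between 2303 and 2568 and RPL36AL between 405 and 469 in single libraries, and these 3 did not pass in any comparison. The lowest adjusted p among these was 0.0969, for RACK1 with both agents against vehicle.

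The mitochondrial ribosome is a separate machine with its own proteins, encoded in the nucleus. Of its 78 tested genes 13 rose and 8 fell in LB DMSO against A549 DMSO, which is 26.9% where 32.4% of all genes tested were called. With amiodarone 1 rose and 10 fell, 14.1% where 8.62% of all genes were called, with a median of -0.10 against 0.01 for the cytosolic genes. With both agents 0 passed against amiodarone (10 at an unadjusted limma p under 0.05, median 0.04), and 3 rose and 10 fell against vehicle, 16.7% beside 17.9% of all genes. The difference between the cytosolic and mitochondrial families was not tested.

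The pathway that makes and assembles ribosomes was read from lists of its other genes. Of 40 assembly factors 2 rose and 6 fell with amiodarone against vehicle, and 2 of the 8 kept the call with any 1 library left out. The median was -0.14, where all genes had 0.00 and 4.90% of them rose and 3.72% fell. The count was 13 without A549 DMSO replicate 2. Dropping LB DMSO replicate 1 left 4 calls, dropping its replicate 3 left 2, and dropping LB amiodarone replicate 2 left 3. It was 5 without LB amiodarone replicate 1 or 3 or LB amiodarone plus HPbCD replicate 1 or 2. NOC2L, whose yeast counterpart acts in the export of large-subunit precursors, fell with amiodarone from 83.1 ± 2.03 to 65.1 ± 2.44 TPM (SD, n = 3; difference -0.35 ± 0.05 SE, adjusted p = 0.000799). BOP1, needed for large-subunit maturation, was at 105 ± 3.62 and 80.9 ± 3.88 TPM (difference -0.38, adjusted p = 0.0135, but up to 0.0586 when LB DMSO replicate 3 or LB amiodarone replicate 2 was dropped). GRWD1, the chaperone of RPL3, fell from 102 ± 5.65 to 79.0 ± 6.43 TPM (difference -0.36, adjusted p = 0.00888), while RPL3 itself was at 1748 ± 36.7 and 1768 ± 53.3 TPM. Whether these genes and the ribosomal proteins responded differently was not tested.

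Against vehicle, both agents gave 2 higher and 6 lower of the 40 assembly factors, 2 lower of 6 chaperones, and 5 lower of 19 subunits and factors of RNA polymerases I and III, where 10.1% of all genes were higher and 7.81% lower. The 8 assembly factors became 14 without A549 DMSO replicate 2. Dropping LB DMSO replicate 1 or 3 left a count of 3, dropping its replicate 2 left 5, and dropping LB amiodarone plus HPbCD replicate 1, 2 or 3 left 5, 4 and 4. The 5 polymerase genes became 2 without LB DMSO replicate 1 or 3 or LB amiodarone plus HPbCD replicate 1 or 2, and 3 when replicate 3 of the latter was dropped. BOP1 was at 79.4 ± 4.52 TPM (difference -0.40, adjusted p = 0.00432) and UBTF, a factor of ribosomal RNA transcription, fell from 68.1 ± 6.91 to 54.6 ± 1.94 TPM (difference -0.31, adjusted p = 0.00747). NOP10 rose from 454 ± 2.28 to 571 ± 10.4 TPM (difference 0.33, adjusted p = 0.000392). Against amiodarone alone, 1 assembly factor rose, 0 chaperones and 0 polymerase genes passed (3 and 4 at an unadjusted limma p under 0.05).

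Other messengers with a TOP tract could be set beside the ribosomal proteins. The list of 18 genes holds elongation and initiation factors together with TPT1, PABPC1, PABPC4, NACA, BTF3, HNRNPA1 and NAP1L1. Of these 18 genes 3 rose and 3 fell between the lines, and 0 rose and 1 fell with amiodarone. With both agents 0 rose and 1 fell against amiodarone, and 0 rose and 3 fell against vehicle. The first count is 6 of 18, near the 32.4% of all genes called there, and the others stand beside 8.62%, 4.07% and 17.9%. With median-of-ratios scaling the split was 6 higher and 2 lower between the lines, and 1 higher and 1 lower against vehicle. EEF1A1, which brings aminoacyl-tRNA to the ribosome, was at 6471 ± 305 TPM in A549, 7736 ± 265 in LB DMSO, 8305 ± 129 in LB amiodarone and 6811 ± 281 with both agents (SD, n = 3). It rose between the lines (difference 0.26, adjusted p = 0.000806) and fell with both agents against amiodarone (difference -0.29, adjusted p = 0.00375). Against vehicle its difference with both agents was -0.18 (adjusted p = 0.0140), a call lost without LB DMSO replicate 3 or LB amiodarone plus HPbCD replicate 2 or 3, and 0.17 after quantile normalization (adjusted p = 0.296). The other calls were both lost after quantile normalization (0.887 and 0.952), and the second without the filter on low values (0.0546). EEF1A1 lies on chromosome 6, as do RPF2, LTV1, RIOK1, POLR1C, PDCD2 and SNHG5, which make up 7 of the 28 genes of these lists that rose in LB DMSO.

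Noncoding host genes of small nucleolar RNAs, whose transcripts also begin with a TOP tract in several cases, form another list. Of 10 tested 7 rose in LB DMSO against A549 DMSO and 0 fell (median 0.34, where 14.2% of all genes tested rose), and all 7 kept the call with any 1 library left out. GAS5 went from 191 ± 10.6 to 303 ± 22.6 TPM (difference 0.66 ± 0.06 SE, adjusted p = 6.05e-06), and then was at 359 ± 14.4 with amiodarone and 425 ± 22.5 with both agents (SD, n = 3). Its difference from vehicle with both agents was 0.49 (adjusted p = 0.000207). Of the 10 host genes 2 rose and 1 fell with amiodarone (median 0.02), where 8.62% of all genes were called. With both agents 0 rose and 1 fell against amiodarone (median 0.02), beside 4.07% of all genes. Against vehicle 2 rose and 1 fell with both agents (median -0.0004), beside 17.9%. In the same order, 0, 0 and 2 of these calls were kept with any 1 library left out. SNHG8 rose between the lines by 0.72 (adjusted p = 2.25e-05). The 28 ribosomal protein genes that hold small nucleolar RNAs had a median of 0.05 in the same comparison, as had the 54 that do not.

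Of 22 tested regulators of growth and ribosome synthesis 7 rose and 1 fell between the lines, 1 rose and 0 fell with amiodarone, 1 rose and 1 fell between the drug groups, and 5 rose and 3 fell with both agents against vehicle. Of all genes tested 32.4%, 8.62%, 4.07% and 17.9% were called in these comparisons, in the same order. In either direction the first count lies near the background. By direction, 7 of 22 rose where 14.2% of all genes did, and 1 fell where 18.2% did. Of these 8 calls between the lines, 3 were kept with any 1 library left out. DDIT4, an inhibitor of mTOR complex signalling, was at 226 ± 20.7 TPM with vehicle and 314 ± 19.2 with both agents (SD, n = 3; difference 0.47, adjusted p = 0.00628), and RHEB, the activator of that complex, rose from 138 ± 7.02 to 188 ± 13.8 TPM (difference 0.44, adjusted p = 0.00144). Of 8 tested genes of the S6 kinase families, whose names begin with RPS6K but which are no ribosomal proteins, 1 rose and 3 fell between the lines, 0 passed for amiodarone against vehicle or for both agents against amiodarone (3 at an unadjusted limma p under 0.05 in each), and 1 rose with both agents against vehicle.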

How the data were processed

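The libraries were strand-specific, from mRNA, with 100-bp paired reads, per the labels' protocols. The authors deposited TPM per gene symbol, made with STAR 2.7.3a, RSEM 1.3.1 and GRCh38 per the submitters' processing notes; the annotation release is not given in sources used here. Library totals were all close to each other (999449 to 999632 TPM), so depth and counting error are unknown. Of 57189 rows, 37 hold no value; 0 value columns had no sample.

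From these, log2(TPM + 1) of 13968 genes (mean over the 12 libraries 1 TPM or more) was fitted with limma 3.58.1 (R 4.3.3), with a mean-variance trend, as 4 group means (8 residual degrees of freedom), two-sided, with Benjamini-Hochberg adjustment over all tested genes per comparison and a threshold of 0.05. The median residual SD was 0.128. Paralog log2 ratios and shares were tested with exact permutation over libraries. The fits were tested on simulated data. Positions are from GENCODE 29, promoter windows from RefSeq. Read division among pseudogenes and paralogs by RSEM limits their separation.

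Named with values were paralogs and partners, RPLP0, RPLP1, RPLP2, RPL5, RPL11, RPS6, RPSA, RPS27A, the 8 largest called members per comparison, the 6 highest and 4 lowest expressed members, up to 4 called genes of each other list, and FAU, RACK1 and RPL36AL. Some genes that this rule names are not reported here. The other called members, RPS7, RPL10A and the chromosome 6 genes were named after their values were seen. Members and lists were chosen with earlier results of these data known. Other settings tried were a pseudocount of 0.1 or 5, a filter at 5 TPM or none, median-of-ratios, quantile and non-ribosomal scaling, removal of mitochondrially encoded genes, limma with array weights, with robust variance or without its trend, fits restricted to 2 groups, a replicate block, and leaving out each library.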

Additional observations from a re-analysis of the deposited data

How the results depend on the processing

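Medians of the ribosomal protein genes moved by less than 1 replicate SD (0.0425, the median over members) in every setting. That SD is about as large as the medians, so this does not show them to be stable. The median between the lines went from 0.05 to 0.09 with median-of-ratios scaling. For amiodarone against vehicle it went from 0.01 to -0.02 without LB amiodarone replicate 1, and for both agents against amiodarone from -0.04 to -0.02. The ratios of RPS27L, RPL7L1, RPL26L1 and RPL39L to their partners passed in all settings. The counts of called members moved more. For LB DMSO against A549 DMSO (20) the count was 12 without the low-value filter, 31 after quantile normalization, 12 without trend and 12 to 21 with 1 library left out. For amiodarone against vehicle (3) it was 0 without the filter, 7 after quantile normalization, 8 without mitochondrially encoded genes, 0 without trend, 1 in the fit of 2 groups and 0 to 6 with 1 library left out. For both agents against amiodarone (2) it was 0 without the filter, 1 with median-of-ratios scaling, 0 after quantile normalization, 7 without mitochondrially encoded genes, 1 when scaled on other genes, 0 without trend, 0 in the fit of 2 groups and 0 to 2 with 1 library left out. For both agents against vehicle (8) it was 4 without the filter, 5 with median-of-ratios scaling, 20 without mitochondrially encoded genes, 3 without trend and 4 to 10 with 1 library left out. The exact permutation p of the RPL22L1 ratio was 0.117 after quantile normalization and 0.0219 to 0.175 with 1 library left out. That of the summed share was 0.0126 without mitochondrially encoded genes and 0.0465 to 0.303 with 1 library left out. EEF1A1, an elongation factor set beside the members, differed between both agents and vehicle by -0.18, and by 0.17 after quantile normalization. The causes were not tested. With a replicate block the 4 counts were 22, 4, 2 and 9; same-numbered libraries had residual correlations of -0.0649 to 0.212, so not every pair was above 0.1, while 8 of 12 libraries correlated best with their own number. Libraries were therefore treated as sharing only a number, and whether the numbers mark a shared culture or day is not settled. TPM gives no depth, so members near 50 TPM carry an unknown counting error.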
